A study of Mus musculus with 12 samples.

Results

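Dimethylated lysine 4 of histone H3 (H3K4me2) was listed both with the LSD1 inhibitor S2101 and with vehicle, and trimethylated H3K4 (H3K4me3) in neither, at 1368 of 51372 regions of the mouse genome. The regions were formed by pooling the peak lists of H3K4me1, H3K4me2 and H3K4me3 from both treatments and merging peaks that share at least 1 bp. A region was taken to have a mark in a treatment when it held a peak of that list. The 1368 regions were 2.66% of all merged regions and 10.1% of the 13598 regions with H3K4me2 in both treatments. They were chosen by the presence of H3K4me2 peaks and the absence of H3K4me3 peaks in the 2 treatments' lists, so neither of these is a finding.

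Methylation of H3K4 marks active and poised regulatory DNA in graded form. H3K4me3 is concentrated at the start sites of active genes, H3K4me1 is found at enhancers and around promoters, and H3K4me2 overlaps with either form. LSD1 (Kdm1a) is a demethylase that acts on mono- and dimethylated H3K4 and cannot act on the trimethylated form, and it takes part in the differentiation of muscle precursors. Places with H3K4me2 and H3K4me1 but without H3K4me3 are commonly read as distal elements. The choice made here did not ask for H3K4me1, but its peaks took part in the merging that formed the regions. No gene annotation of the genome build of the lists was used, so the regions are given by position (mm9) and are not named as enhancers or by gene.

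The cells were C2C12, a line of mouse myoblasts, the precursors that form multinucleate muscle fibres once growth serum is withdrawn. One group had S2101 at 10 µM and the other had vehicle, both for 48 h in differentiation medium with 2% horse serum, up to day 2. Each mark and treatment has 1 library. The H3K4me3 lists are of experiment 2 and those of the other marks of experiment 1, so the absence of H3K4me3 rests on chromatin of another experiment than the other marks. The S2101 and vehicle lists hold 20664 and 40432 H3K4me1 peaks, 24444 and 21447 H3K4me2 peaks, and 14324 and 13589 H3K4me3 peaks. Read depth is unknown, peak number and width depend on it, and no difference between treatments has a replicate check. The intervals given with shares of regions are 95% Wilson intervals and reflect counting alone, and the 19 autosomes are used to show spread and are not replicates.

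H3K4me2 was shorter with S2101 than with vehicle at nearly all of the 1368 regions. The covered length per region had a median of 403 bp with S2101 (quartiles 321 and 541 bp) and of 1034 bp with vehicle (817 and 1386 bp). The ratio of S2101 to vehicle length had a median of 0.407 (quartiles 0.307 and 0.533), and its median per autosome ran between 0.331 and 0.505. The ratio was under 1 in 1359 of 1368 regions, 99.3%, where 99.5% of all regions with H3K4me2 in both treatments were under 1, so this direction was not particular to them. A ratio under 0.5 was found in 941 regions, 68.8% (66.3 to 71.2%), against 42.8% of all regions with H3K4me2 in both treatments. Most regions held a single H3K4me2 peak in each list, 90.9% of them with S2101 and 96.8% with vehicle.

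The S2101 stretch was short, and its length followed that of the vehicle domain less closely than in regions with H3K4me3. Where the vehicle H3K4me2 was at most 750 bp, the S2101 length had a median of 344 bp over 228 regions, a median ratio of 0.545. Where it lay between 1000 and 1500 bp, the S2101 median was 421 bp over 465 regions, a ratio of 0.354. Where it was over 3000 bp, the S2101 median was 653 bp over 20 regions, a ratio of 0.137. In the 11600 regions with H3K4me2 and H3K4me3 in both treatments, the S2101 length grew with the vehicle length, and the ratio stayed between 0.531 and 0.574 in all 6 bins of vehicle length. Across regions, the lengths of the 2 treatments had a Spearman rho of 0.391 without H3K4me3 (n = 1368) and of 0.742 with it (n = 11600), a description only, as all regions share the same libraries. The range of lengths also differed, with vehicle quartiles of 817 and 1386 bp without H3K4me3 and of 1584 and 2801 bp with it. Without H3K4me3 the S2101 median of 403 bp lay under the median peak width of its list, 552 bp. The vehicle median of 1034 bp likewise lay under that of the vehicle list, 1342 bp. H3K4me2 peaks were thus narrower with S2101 over the whole lists too, which cover 15.9 Mb with S2101 and 34.1 Mb with vehicle.

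**Figure D1:**
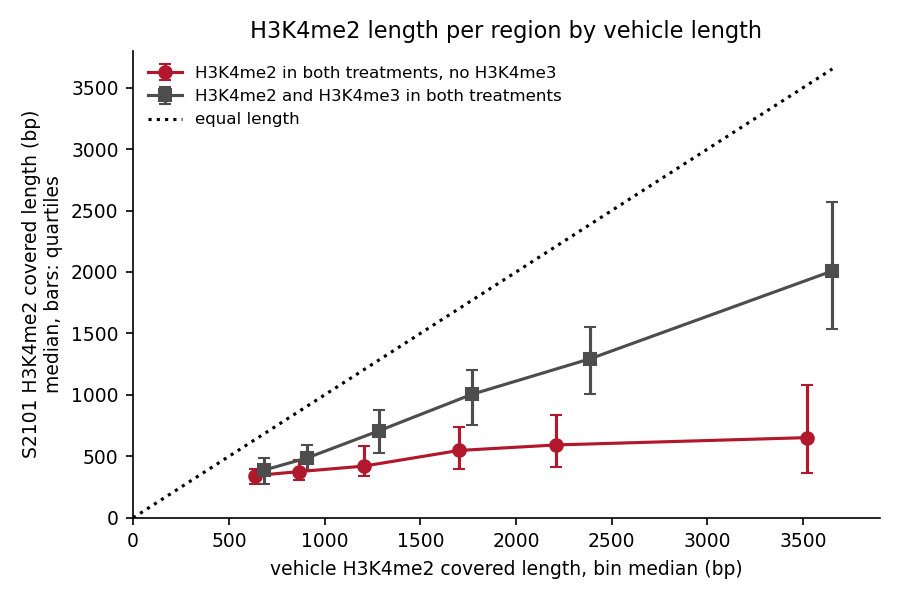
S2101 H3K4me2 covered length per region (y axis, bp; points are medians and bars quartiles) against the median vehicle H3K4me2 covered length (x axis, bp) in 6 bins, for regions without H3K4me3 (circles) and with H3K4me3 in both treatments (squares). Without H3K4me3 the S2101 medians run between 344 and 653 bp while the vehicle medians run between 639 and 3518 bp, and all points lie under the dotted line of equal length.

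The score of the peaks moved with this difference. The score is the authors' value for each peak and ranks peaks within a list only. The best S2101 H3K4me2 peak of a region without H3K4me3 lay at percentile 22.0 of its list at the median, against 71.6 for regions with H3K4me3. The best vehicle peak lay at percentile 27.9, against 71.9. The S2101 length moved with the S2101 score, with a median of 325 bp over 666 regions at 100 to 150 and of 1026 bp over 16 regions at 500 or more. At a score of 100 to 150 the median ratio was 0.343 without and 0.286 with H3K4me3. At 500 or more it was 0.647 and 0.651. The part of the score in the shorter S2101 stretch was not tested. The excess of ratios under 0.5 over regions with H3K4me3 was 29.5 points (95% Newcombe interval 26.9 to 32.1 points, higher on 19 of 19 autosomes). Within bins of the S2101 score the order was reversed in every bin. The share under 0.5 was 83.6% without and 90.7% with H3K4me3 at 100 to 150. It was 50% and 61.0% at 200 to 300, and 12.5% of 16 regions and 14.1% of 4276 at 500 or more. Vehicle H3K4me2 was shorter without H3K4me3 inside these bins. Its medians were 954 bp without and 1402 bp with H3K4me3 at 100 to 150, and 1108 and 1890 bp at 200 to 300. The part of vehicle length in the reversed order was not tested. Over all scores, the excess was 6.46 points when the widest peak of each treatment was compared. When only peaks with a score of 200 or more were used in all lists, it was 2.76 points. That limit also drops weak H3K4me3 peaks and so picks other regions, since 310 of the 561 regions it gives lie inside the 1368 and 251 in regions that have an H3K4me3 peak.

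The S2101 stretch mostly lay inside the vehicle peak. In 1219 regions each treatment had exactly 1 H3K4me2 peak, and the S2101 peak lay entirely inside the vehicle peak in 1077 of these, 88.4%. With the vehicle peak divided into 3 equal parts, the S2101 midpoint lay in the central part in 66.1% of the 1219 and in an outer part or beyond in 33.9%. Nesting in a longer peak limits where a midpoint can lie, and the central share expected from this was not computed. In 9 of the 1368 regions the H3K4me2 peaks of the 2 treatments did not touch and were joined only through H3K4me1. Over all 1368 regions S2101 H3K4me2 covered 37.8% of the vehicle H3K4me2 bases, and 3.30% of the S2101 bases lay outside vehicle H3K4me2. At the midpoint of the widest vehicle peak 69.7% of the regions were covered with S2101, and 500 bp to its left and right 13.1% and 11.0% were. The vehicle coverage at these 2 flanks was 54.0% and 54.5%.

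H3K4me1 was present in both treatments in 633 of the 1368 regions, 46.3% (43.6 to 48.9%), against 16.9% of all regions with H3K4me2 in both treatments. H3K4me1 was present with S2101 only in 25 regions, 1.83% (1.24 to 2.68%), where the background is 2.64%. With vehicle only it was present in 387 regions, 28.3% (26.0 to 30.7%), at the background of 28.8%. It was absent from both treatments in 323 regions, 23.6% (21.4 to 25.9%), against 51.6%. In all, H3K4me1 was present in 48.1% of the regions with S2101 and in 74.6% with vehicle. Among the 311 of these regions whose best H3K4me2 peak scored 200 or more in both treatments, 50.8% (45.3 to 56.3%) had H3K4me1 in both treatments and 16.4% (12.7 to 20.9%) in neither. With the limit of 200 put on all lists, H3K4me1 was in both treatments in 27.1% (22.5 to 32.3%) and in neither in 35.5% (30.4 to 41.0%) of the 310 regions that lie inside the 1368. Counting H3K4me1 only where it overlapped H3K4me2 of the same treatment, 28.8% had it in both.

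**Figure D2:**
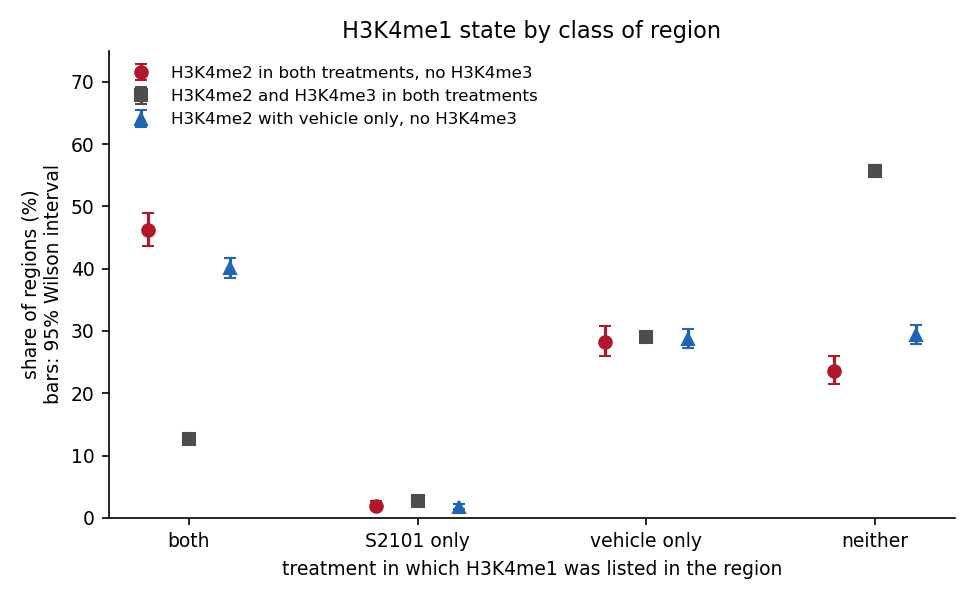
Share of regions (y axis, %, with 95% Wilson intervals) by the treatments in which H3K4me1 was listed (x axis), for regions with H3K4me2 in both treatments and no H3K4me3 (circles), with H3K4me2 and H3K4me3 in both (squares), and with H3K4me2 with vehicle only and no H3K4me3 (triangles). H3K4me1 in both treatments marks 46.3% of the circles' regions, 12.6% of the squares' and 40.2% of the triangles'.

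Compared with regions that carry H3K4me3, those without it held H3K4me1 in both treatments more often. The shares were 46.3% and 12.6%, a difference of 33.6 points (95% Newcombe interval 30.9 to 36.3 points), higher on 19 of 19 autosomes. Absence of H3K4me1 from both treatments was less frequent, 23.6% and 55.7%, a difference of -32.1 points (-34.4 to -29.6 points), lower on 19 of 19 autosomes. The shares with H3K4me1 in vehicle only were 28.3% and 29.0%, a difference of -0.685 points (-3.15 to 1.89 points), which did not exceed counting error. With a score of 200 or more in all lists, and so over the other set of 561 regions, the excess of H3K4me1 in both treatments was 17.9 points.

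Compared with the 3601 regions that had H3K4me2 with vehicle only and also lacked H3K4me3, the H3K4me1 pattern differed little. H3K4me1 in both treatments was found in 46.3% and 40.2%, a difference of 6.12 points (3.03 to 9.21 points). The direction was not shared along the genome, with 10 autosomes higher and 9 lower, and weighted within autosomes the difference was 3.89 points. For H3K4me1 in neither treatment the shares were 23.6% and 29.4%, with 8 autosomes higher and 11 lower. The regions with vehicle-only H3K4me2 had a median of 815 bp of it, and their best vehicle peak lay at percentile 13.8 of its list. Of all 4969 regions with vehicle H3K4me2 and no H3K4me3, 27.5% (26.3 to 28.8%) had H3K4me2 with S2101 too. By the score of the vehicle peak this share was 13.4% at 100 to 150, 35.1% at 200 to 300 and 80.8% at 500 or more. In regions with vehicle H3K4me2 that held H3K4me3, it was 37.1%, 67.8% and 98.9% in the same bins. These shares describe how the regions were chosen.

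Where H3K4me1 was present with vehicle, it was listed again with S2101 in 633 of 1020 regions, 62.1% (59.0 to 65.0%), against 33.5% of all merged regions with vehicle H3K4me1. It was 30.4% in regions with H3K4me2 and H3K4me3 in both treatments, a difference of 31.7 points (28.4 to 34.9 points, higher on 19 of 19 autosomes). It was 30.2% in regions with H3K4me1 and no other mark, a difference of 31.8 points (28.8 to 34.8 points, higher on 19 of 19 autosomes). It was 58.3% (1446 of 2481) in regions with vehicle-only H3K4me2 and no H3K4me3, a difference of 3.78 points (0.196 to 7.29 points), with 11 autosomes higher and 8 lower, so a high share was not particular to regions with H3K4me2 in both treatments. The score of the H3K4me1 peaks moved with this. The best vehicle H3K4me1 peak lay at percentile 80.9 of its list in the regions described here, at 80.4 in those with vehicle-only H3K4me2, at 51.0 in those with H3K4me3 and at 46.6 in those with H3K4me1 alone. Counted over single vehicle H3K4me1 peaks, the share overlapping an S2101 H3K4me1 peak was 54.9% of 1578, 51.3% of 3389, 23.6% of 6792 and 31.4% of 27513 in these 4 classes.

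Within bins of the same score range, single H3K4me1 peaks of the regions without H3K4me3 were still found again more often than those of regions with H3K4me3, in all 5 score bins, by 10.3 to 19.4 points. At a score of 100 to 150 the shares were 23.4% of 273 peaks and 9.74% of 2628 peaks, a difference of 13.7 points (8.92 to 19.2 points). At 500 or more they were 92.1% of 392 and 81.8% of 522, a difference of 10.3 points (5.93 to 14.5 points). Against peaks of regions with H3K4me1 alone the excess was smaller, 5.41 to 9.72 points, and its interval lay above 0 in all 5 bins. Against peaks of regions with vehicle-only H3K4me2 it was 1.69 to 10.4 points, with an interval above 0 in 1 of 5 bins. Scores were not equal inside a bin. At 500 or more their median was 777 without H3K4me3, 710 with it and 649 with H3K4me1 alone. The intervals count each peak singly, although 1 region can hold several.

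**Figure D3:**
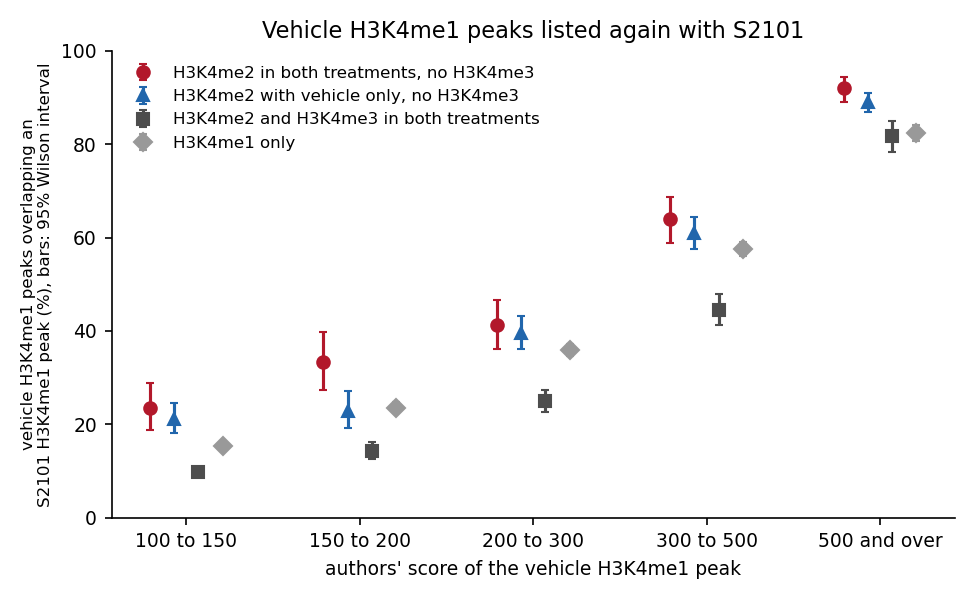
Share of vehicle H3K4me1 peaks that overlap an S2101 H3K4me1 peak (y axis, %, with 95% Wilson intervals) by the authors' score of the vehicle peak (x axis) in 4 classes of region. The circles (H3K4me2 in both treatments, no H3K4me3) lie above the squares (with H3K4me3) and diamonds (H3K4me1 only) in all 5 bins, between 23.4% and 92.1%.

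H3K4me1 was also shorter with S2101 where both treatments had it. In the 633 regions the covered length had a median of 699 bp with S2101 (quartiles 426 and 1181 bp) and of 1556 bp with vehicle (983 and 2277 bp), and the ratio had a median of 0.510 (quartiles 0.368 and 0.703). The median ratio was 0.521 in regions with vehicle-only H3K4me2 and no H3K4me3 and 0.487 in regions with H3K4me3, both close to this value, and 0.633 in regions with H3K4me1 and no other mark. Where it was listed with vehicle only, in 387 regions, it covered 677 bp at the median. Where it was listed with S2101 only, in 25 regions, it covered 336 bp.

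Where H3K4me1 was present, its contact with the vehicle H3K4me2 peak was mostly set by the merging, which joins overlapping peaks. The shares of contact are thus a description. S2101 H3K4me1 overlapped the widest vehicle H3K4me2 peak in 602 of 658 regions, 91.5% (89.1 to 93.4%), and vehicle H3K4me1 in 1017 of 1020, 99.7% (99.1 to 99.9%). The midpoint of that peak was covered by S2101 H3K4me1 in 34.8% of the 658 regions (31.3 to 38.5%) and by vehicle H3K4me1 in 67.2% of the 1020 (64.2 to 70.0%). The S2101 H3K4me2 peak, a shorter target, was overlapped by S2101 H3K4me1 in 62.3% (58.5 to 65.9%). In regions with H3K4me3, S2101 H3K4me1 overlapped S2101 H3K4me2 in 66.8% and the widest vehicle H3K4me2 peak in 85.6%. Vehicle H3K4me1 overlapped that vehicle peak in 91.6%. In the regions without H3K4me3, H3K4me1 lay beyond 1 end only of the widest vehicle H3K4me2 peak, within 500 bp, in 50.6% with S2101. With vehicle this share was 35.9%. H3K4me1 lay beyond both ends in 29.5% with S2101 and in 49.9% with vehicle.

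Along the regions, the vehicle H3K4me1 profile was a single hump over the H3K4me2 midpoint and the S2101 profile was flat across it. At the midpoint S2101 H3K4me1 covered 16.7% of the 1368 regions and vehicle H3K4me1 50.1%. At 1 kb to the left and right the S2101 coverage was 15.4% and 16.7%, about as at the midpoint, while that of vehicle was 32.3% and 32.6%. At 5 kb to either side coverage was 3.07% and 3.95% with S2101 and 8.55% and 9.06% with vehicle. In regions with H3K4me3 the vehicle profile had a dip at the midpoint, with 8.34% there, 10.8% at 500 bp to the left and 11.9% at 500 bp to the right. There the S2101 coverage was 1.25% at the midpoint and 2.26% and 2.50% at these flanks.

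**Figure D4:**
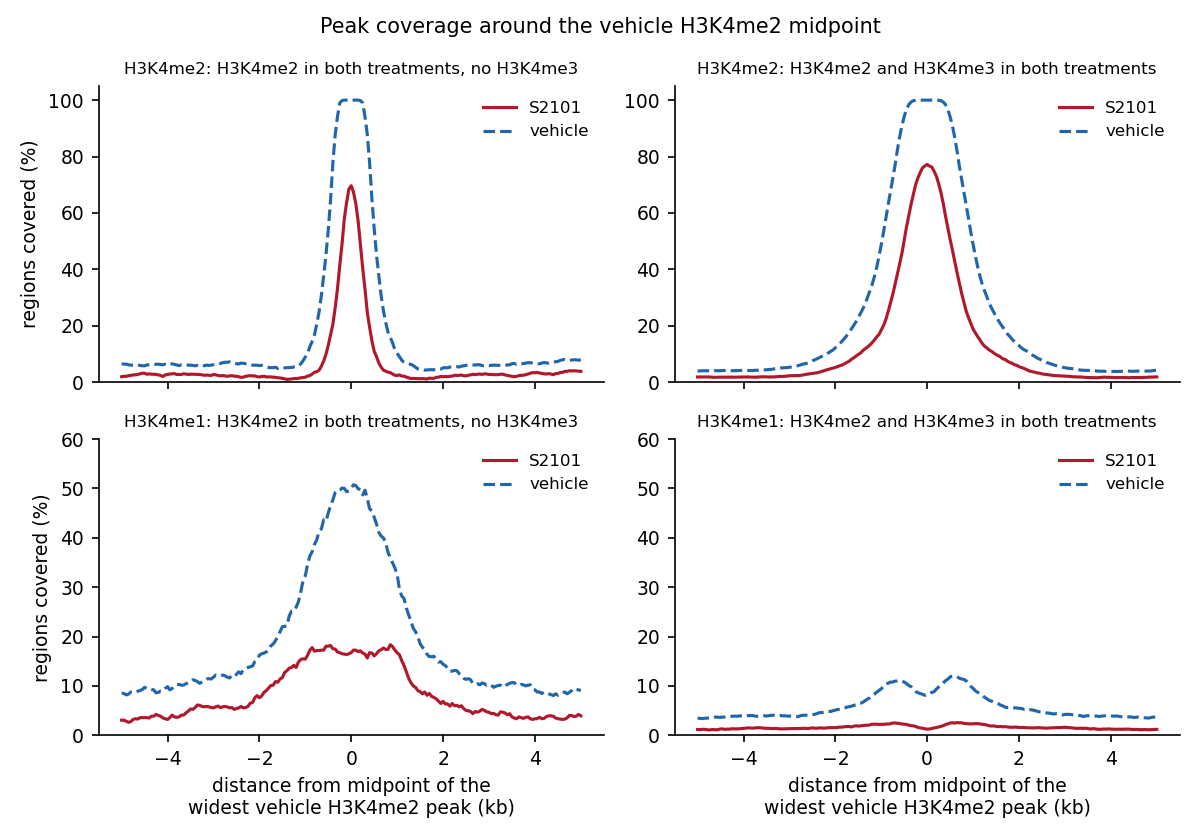
Share of regions covered by a peak (y axes, %) by distance from the midpoint of the widest vehicle H3K4me2 peak (x axes, kb), for H3K4me2 (top) and H3K4me1 (bottom), with S2101 (solid) and vehicle (dashed), in 1368 regions without H3K4me3 (left) and 11600 with H3K4me3 (right). Vehicle H3K4me2 is 100% at the midpoint by construction, and S2101 H3K4me1 without H3K4me3 stays between 15.4% and 18.3% within 1 kb of it.

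H3K4me1 was not concentrated where H3K4me2 was no longer listed. Within the vehicle H3K4me2 of the 1368 regions, 611 kb also had S2101 H3K4me2 and 1005 kb did not. S2101 H3K4me1 covered 19.8% of the bases that had S2101 H3K4me2 and 22.3% of those that did not. Vehicle H3K4me1 covered 56.1% and 55.7% of the same bases. In the 633 regions with H3K4me1 in both treatments, these shares were 38.6% and 37.8% for S2101 H3K4me1 and 77.8% and 75.1% for vehicle H3K4me1. In the 387 regions with vehicle-only H3K4me1, that mark covered 62.2% of the bases with S2101 H3K4me2 and 49.0% of those without. No interval can be attached to these base totals, since neighbouring bases are not independent.

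The 4 H3K4me1 patterns went with domain length and surroundings. With H3K4me1 in both treatments, the H3K4me2 length had a median of 424 bp with S2101 and 1234 bp with vehicle, and a median ratio of 0.369. With H3K4me1 in vehicle only, the medians were 407 bp with S2101 and 1029 bp with vehicle, a ratio of 0.412. With H3K4me1 in neither, they were 366 bp with S2101 and 838 bp with vehicle, a ratio of 0.453. The S2101 lengths of the 3 patterns thus lay close together, while the vehicle lengths stood farther apart. In regions without H3K4me1, the nearest H3K4me1 peak lay 52466 bp away at the median with S2101 and 23336 bp away with vehicle.

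The nearest H3K4me3 peak of either treatment lay 22557 bp from a region at the median (quartiles 7276 and 54630 bp). It lay within 1 kb for 4.97% of the 1368 regions (3.94 to 6.25%), within 5 kb for 19.4% (17.4 to 21.6%), within 10 kb for 31.1% (28.7 to 33.6%) and within 50 kb for 72.7%. Regions with H3K4me1 in both treatments lay nearer, with a median of 17313 bp and 37.1% within 10 kb (33.4 to 41.0%). Those with H3K4me1 in neither lay farther, with a median of 33844 bp and 19.5% within 10 kb (15.6 to 24.2%). The median distance was 23601 bp for regions with vehicle-only H3K4me2 and 27916 bp for those with H3K4me1 alone. Of the 1368 regions, 124, 9.06%, had another of them within 10 kb, and 23.0% had one within 50 kb. The median distance to the nearest other one was 224361 bp. The shares expected of regions scattered evenly were not computed.

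The limit of the choice is an H3K4me3 peak touching the region. The regions just inside it lay on chromosome 2 (84486057 to 84487246), chromosome 10 (80205226 to 80206007) and chromosome 6 (127101171 to 127102515), at 10, 18 and 20 bp from an H3K4me3 peak. Their H3K4me2 covered 716, 467 and 626 bp with S2101, and 1172, 757 and 1345 bp with vehicle. In all, 11 of the 1368 regions lay within 100 bp of H3K4me3. The regions left out were ranked by how many bases of their H3K4me1 or H3K4me2 peaks H3K4me3 overlapped. Those with the least, on chromosome 2 (165193004 to 165194042) and chromosome 6 (128752583 to 128753967), had 182 and 232 bp of such overlap. H3K4me3 covered 490 and 647 bp of them with S2101 and was not listed there with vehicle. H3K4me2 covered 369 and 506 bp of them with S2101, and 731 and 744 bp with vehicle. On chromosome 5 (125867750 to 125868044) the overlap was 244 bp, with 118 bp of H3K4me2 with S2101 and 295 bp with vehicle. Among the 12230 regions left out for H3K4me3, 630 had it in 1 treatment only, 564 of them with S2101 and 66 with vehicle.

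The longest S2101 H3K4me2 among the 1368 regions lay on chromosome 18 (32542279 to 32552643), in a region of 10365 bp. H3K4me2 covered 1827 bp of it with S2101, in 3 peaks, and 5621 bp with vehicle, in 2 peaks. H3K4me1 covered 8149 bp with S2101, in 9 peaks, and 10321 bp with vehicle, in 2 peaks. This region kept most of its H3K4me1 length in a larger number of pieces, and the nearest H3K4me3 peak was 1406 bp away. A second wide domain, on chromosome 15 (77042446 to 77051852), had the same form. Its H3K4me2 covered 1410 bp with S2101 and 5050 bp with vehicle, and its H3K4me1 covered 4948 bp in 6 peaks with S2101 and 8247 bp in 4 peaks with vehicle.

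Over the 633 regions with H3K4me1 in both treatments, the median ratio was 0.510 for H3K4me1 and 0.369 for H3K4me2. In the regions named next on chromosomes 12 and 11, H3K4me1 was instead the mark with the lower ratio. On chromosome 12 (101202408 to 101204583), H3K4me2 covered 1805 bp with S2101 and 2176 bp with vehicle, a ratio of 0.830. H3K4me1 there covered 443 bp with S2101 and 1779 bp with vehicle, and the nearest H3K4me3 was 78739 bp away. On chromosome 11 (5143548 to 5146447), H3K4me2 covered 1563 bp with S2101 and 2900 bp with vehicle, and H3K4me1 401 bp and 1450 bp. The region on chromosome 17 (3081426 to 3083527) differed in that both marks were long in both treatments and H3K4me2 had the lower ratio. H3K4me2 covered 1405 bp with S2101 and 2102 bp with vehicle, and H3K4me1 1431 bp and 1500 bp. This region lay 99 bp from an H3K4me3 peak.

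With H3K4me1 listed in vehicle only, the longest S2101 H3K4me2 was on chromosome 1 (23768626 to 23770291), far from any H3K4me3 (157853 bp). H3K4me2 covered 1343 bp of it with S2101 and 1666 bp with vehicle, a ratio of 0.806, and vehicle H3K4me1 covered 719 bp. On chromosome 5 (147997606 to 147999647) H3K4me2 covered 1300 bp in 3 peaks with S2101 and 1764 bp in 1 peak with vehicle, and vehicle H3K4me1 covered 283 bp. A second region on chromosome 5 (92796891 to 92799040) had 1161 bp of H3K4me2 with S2101 and 2098 bp with vehicle. In these regions H3K4me2 was the mark present in both treatments and H3K4me1 the one missing from the S2101 list. The same held on chromosome 10 (92626431 to 92629888), with H3K4me2 over 1153 bp with S2101 and 3182 bp with vehicle, and vehicle H3K4me1 over 1981 bp. On chromosome 13 (76193041 to 76194492) H3K4me2 covered 1020 bp with S2101 and 1452 bp with vehicle.

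With H3K4me1 in neither treatment, the longest S2101 H3K4me2 lay on chromosome 12 (45429726 to 45430952). It covered 1123 bp with S2101, in 2 peaks, and 1082 bp with vehicle, a ratio of 1.04 and the highest among regions with at least 1000 bp of vehicle H3K4me2. On chromosome 11 (80415597 to 80417115) the lengths were 1027 bp with S2101 and 1519 bp with vehicle, and the nearest H3K4me3 was 122372 bp away. These are stretches of H3K4me2 with no other listed H3K4 methylation. Others lay on chromosome 18 (55060591 to 55062821), with 975 bp with S2101 and 2231 bp with vehicle, and on chromosome 8 (109778122 to 109779458), with 834 bp and 1337 bp. On chromosome 3 (135337563 to 135338819) the lengths were 826 bp with S2101 and 1163 bp with vehicle.

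The 25 regions with H3K4me1 in S2101 only had H3K4me1 peaks of lower score than the 633 regions with H3K4me1 in both treatments. The best S2101 H3K4me1 peak scored 127 at the median in the 25 and 212 in the 633. These medians lay at percentiles 39.5 and 77.4 of the list. The percentile was 49.1 in regions with H3K4me2 and H3K4me3 in both treatments and 47.6 in regions with H3K4me1 alone. Of the 25, the one with the longest S2101 H3K4me2 lay on chromosome 15 (96496442 to 96497528). H3K4me2 covered 886 bp of it with S2101 and 1087 bp with vehicle, and S2101 H3K4me1 covered 532 bp. The next were on chromosome 6 (73171263 to 73172528) and chromosome 4 (155210996 to 155212609). Their H3K4me2 covered 794 and 781 bp with S2101, and 1263 and 1406 bp with vehicle, and S2101 H3K4me1 covered 262 and 392 bp. Those on chromosome 8 (109394502 to 109396239) and chromosome 11 (51884645 to 51885667) had 270 and 504 bp of S2101 H3K4me1.

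Among the 732 regions with at least 1000 bp of vehicle H3K4me2, 60.7% (57.1 to 64.1%) had H3K4me1 in both treatments. The 5 with the lowest ratio of S2101 to vehicle H3K4me2 length all did. On chromosome 17 (29193121 to 29196083) H3K4me2 covered 192 bp with S2101 and 2924 bp with vehicle, a ratio of 0.0657. On chromosome 4 (59210831 to 59219294) it covered 476 bp with S2101 and 7226 bp with vehicle, a ratio of 0.0659, and H3K4me1 covered 2315 bp and 7732 bp. In that domain H3K4me1 was listed over a longer stretch than H3K4me2 with S2101. The same order was seen on chromosome 4 (137039444 to 137046676), with 369 bp of H3K4me2 and 2884 bp of H3K4me1 with S2101, against 4935 bp and 7045 bp with vehicle. It was also seen on chromosome 5 (66933584 to 66938382), with 315 and 1737 bp with S2101, and on chromosome 4 (154588733 to 154591494), with 246 and 860 bp with S2101. Among the 5 highest ratios, 3 regions had H3K4me1 in both treatments, 1 in vehicle only and 1 in neither. Beside those already given, they lay on chromosome 17 (47644566 to 47645723), with 927 bp with S2101 and 1073 bp with vehicle, and on chromosome 15 at 96713734 to 96715012, with 919 bp and 1075 bp, and at 96931801 to 96934072, with 1069 bp and 1281 bp.

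The regions were spread over all 19 autosomes, with 4 on chromosome X and 1 on unplaced sequence. Chromosome 11 held 137 of them, chromosome 10 held 110 and chromosome 15 held 108. Per 1000 regions with H3K4me2 and H3K4me3 in both treatments, these were 139, 175 and 205. The share with H3K4me1 in both treatments ranged from 14.9% on chromosome 7 (7 of 47) and 15% on chromosome 13 (6 of 40) to 63.9% on chromosome 15 (69 of 108). In regions with H3K4me3 this share was 4.26% on chromosome 7, 5.77% on chromosome 13 and 32.6% on chromosome 15, so the same chromosomes were low and high in both classes. Over the 19 autosomes the shares in the 2 classes had a Pearson r of 0.723 and a Spearman rho of 0.760, a description only, because both come from the same H3K4me1 libraries. The number of S2101 over vehicle H3K4me1 peaks per autosome moved with the share too (Pearson r 0.753, Spearman rho 0.733), and its part in the result was not tested. The share of vehicle H3K4me2 regions without H3K4me3 that also had S2101 H3K4me2 varied less, between 20.1% on chromosome 16 and 34.2% on chromosome 15.

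**Figure D5:**
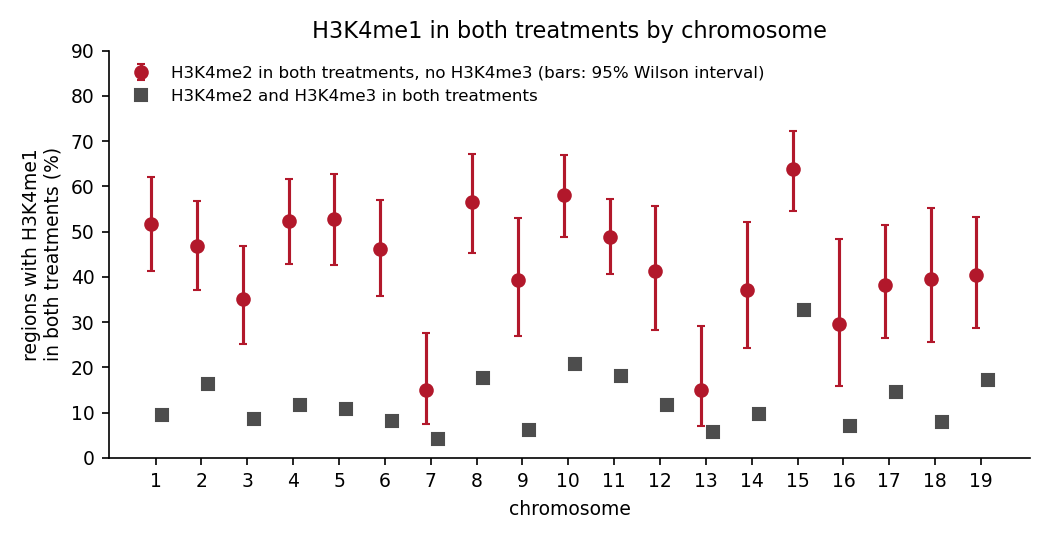
Share of regions with H3K4me1 in both treatments (y axis, %) for each autosome (x axis), for regions with H3K4me2 in both treatments and no H3K4me3 (circles, with 95% Wilson intervals) and with H3K4me2 and H3K4me3 in both (squares). The circles lie above the squares on 19 of 19 autosomes, with the lowest at 14.9% (chromosome 7) and the highest at 63.9% (chromosome 15).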

How the data were processed

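Of the 12 samples, 6 gave the peak lists used, each of them 1 mark in 1 treatment. Input and H3 libraries were not analysed here. Per the file headers, the authors called peaks with MACS in Galaxy, and each list belongs to 1 library. The deposited score is the authors' value for each peak, from 100 to 3233.06, and its quantity is not named in the headers. The other deposited values are peak starts and ends on mm9. Bowtie2 and deepTools are named in the submitters' processing notes. The sources used here give neither caller settings nor read depth.

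Peaks of the 6 lists were merged at 1 bp or more, and coordinates are 1-based. Shares carry Wilson intervals and differences of shares Newcombe intervals. No test between treatments was possible with 1 library each. Autosome-weighted differences use weights from the region numbers of both classes. The interval functions gave the same regions and distances as bedtools 2.31.1 on simulated lists. Alternatives were a minimum cover of 200 bp, a score of 200 or more, H3K4me3 absent within 1 or 5 kb, lists of equal length, merging within 500 bp, fewer chromosomes, and other ways to place H3K4me1 and to measure length. Regions, classes and lists were chosen with earlier results of these data known. Named regions are the 5 with the longest S2101 H3K4me2 in each H3K4me1 pattern, the 5 highest and 5 lowest ratios with at least 1000 bp of vehicle H3K4me2, and 3 on each side of the H3K4me3 limit. The gene and sequence tables at hand are of another build (GRCm38), so the planned gene names, gene lists and sequences are not given. Software was Python 3.11.15 with scipy 1.17.1, pandas 2.3.3, numpy 2.4.6 and, for plots, matplotlib 3.10.9.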

Additional observations from a re-analysis of the deposited data

How the results depend on the processing

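Values below were recomputed under each alternative, those of the differences from regions with H3K4me3 after the data had been seen. With a score of 200 or more in all lists the rule gave 561 regions, 310 of them inside the 1368, with a median H3K4me2 ratio of 0.501. H3K4me1 was then in both treatments in 21.2%, S2101 only in 0.713%, vehicle only in 35.3% and neither in 42.8%, and the differences were 17.9 points (H3K4me1 in both), 20.6 (vehicle H3K4me1 listed again) and 2.76 (ratio under 0.5). With that score asked of H3K4me2 alone, within the 1368 regions, H3K4me1 was in both in 50.8%, vehicle only in 31.2% and neither in 16.4%, an alternative also chosen after seeing the data. With lists of equal length the ratio was 0.446, the H3K4me1 shares in the same order 39.6%, 5.17%, 18.4% and 36.9%, and the differences 29.9, 24.1 and 19.1 points. Merging peaks within 500 bp gave 53.2% in both, 24.7% vehicle only and 20.3% neither, and a difference of 38.2 points. Counting H3K4me1 only over H3K4me2 of the same treatment gave 28.8% in both, 1.17% S2101 only and 45.5% vehicle only, and differences of 20.3 and 18.1 points. Counting it within 1 kb gave 54.5%, 24.5% vehicle only and 19.01% neither, and a difference of 39.1 points. The difference in ratios under 0.5 was 6.46 points for the widest peak and 25.1 points for regions with 1 peak in each treatment. The cause of these shifts was not tested. All 3 differences stayed positive under these alternatives, and the number of regions lay between 1103 and 1364 under the others. These alternatives did not bin regions by S2101 score. Within such bins, the share of ratios under 0.5 was lower without H3K4me3 than with it, and the vehicle H3K4me2 was shorter. No paired analysis was possible because each mark and treatment has 1 library. Depth is unknown, so a mark missing from a list was not detected there and may be present.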
